A study of Mus musculus with 8 samples.

Results

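Expression of 10 imprinted genes that act on growth was followed through 4 groups of fibroblasts: Peg3, Plagl1, Igf2, Dlk1, Mest, Ndn, H19, Meg3, Grb10 and Cdkn1c. They were chosen by symbol from a table of 52110 named gene rows, with their levels in these same libraries already known, so that each value here is a description and the choice lends no weight to it. All 10 were among the 17360 genes that passed a low-count filter and were tested. The cells were primary fibroblasts from lung of WT mice, grown in DMEM with 10% fetal bovine serum. They were left untreated or given recombinant TWEAK, a TNF-family cytokine, at 10, 30 or 100 ng/ml, and RNA was taken after 48 hours. Each group held 2 libraries, 8 in all, and the untreated libraries served as control. The labels give no strain, age or number of animals and do not tell if the libraries of a group were separate cultures, so that statistical tests measure the spread between libraries, which may be technical.

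An imprinted gene is transcribed mainly from the copy inherited from one parent, because an imprinting control region was methylated in the egg or the sperm. Many imprinted genes are highly active in the fetus, set the growth of organs through the insulin-like growth factor pathway and the cell cycle, and fall after birth. Peg3, Plagl1, Igf2, Dlk1, Mest and Ndn are expressed from the paternal copy, whereas H19, Meg3 and Cdkn1c, and Grb10 outside the nervous system, are expressed from the maternal copy. The counts sum both copies, so no parental share was measured.

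Levels are CPM (counts scaled to a common library total) adjusted by TMM, a correction for library composition. Totals ran from 37345575 to 50896445 counts per library, and 3 counts corresponded to 0.0599 to 0.0801 CPM. On the first principal component, which held 43.4% of the variance, the libraries labelled 100 ng/ml lay at -41.32 and -44.46, on the side of the untreated libraries at -78.3 and -78.21. The opposite side held the 30 ng/ml libraries, at 55.73 and 40.57, and the 10 ng/ml libraries, at 73.23 and 72.77. In the order of the deposited columns the groups ran untreated, 100, 30 and 10 ng/ml, which is also their order on this component. Columns were matched to doses only through the sample descriptions, and whether the labels are in the right order was not tested. Doses are given as labelled. The labelled cell type was checked with 7 fibroblast markers, collagen genes and Pdgfra among them, which summed to between 19300 and 19700 CPM in untreated libraries. Epcam of epithelium, Emcn of endothelium, Cd3e of T cells and the globin genes Hba-a1 and Hbb-bs were at 0 counts in every library. Other markers of these lists were present at low level in untreated cells, such as Tek of endothelium at 4.73 CPM and Ager of alveolar epithelium at 0.601. Lyz2 and Cd68 of myeloid cells had 9.53 and 2.06 CPM, and Upk3b of mesothelium 6.68. Of the mural and smooth muscle markers, Acta2, Des and Myh11 were higher, at 642, 31.5 and 26.8 CPM. Cspg4 and Rgs5 of that list had 0.75 and 0.561 CPM.

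One promoter of each gene that passed the test threshold at some dose is shown, from 250 bases before to 50 bases after a transcription start. Grb10 and Meg3 have a further promoter each in the RefSeq table, at chr11:12027922-12028221 and chr12:109545148-109545447, which is not printed and holds no match. The runs are RefSeq sequences of GRCm38.p6, the assembly also called mm10, written 5′ to 3′ on the gene's strand. Capitals mark matches, on either strand, to TGCCGC, the letters that Zfp57 reads at methylated imprinting control regions, or to GGGGCCCC, letters that the Plagl1 protein is known to bind. On the opposite strand TGCCGC reads GCGGCA.
Plagl1 (chr10:13090582-13090881, plus strand): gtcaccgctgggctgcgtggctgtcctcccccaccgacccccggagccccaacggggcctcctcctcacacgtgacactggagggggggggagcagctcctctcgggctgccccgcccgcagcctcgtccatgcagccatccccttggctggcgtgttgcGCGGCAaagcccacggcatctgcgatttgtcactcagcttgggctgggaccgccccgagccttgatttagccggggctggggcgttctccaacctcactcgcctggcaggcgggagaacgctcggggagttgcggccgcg
Grb10 (chr11:12037371-12037670, minus strand): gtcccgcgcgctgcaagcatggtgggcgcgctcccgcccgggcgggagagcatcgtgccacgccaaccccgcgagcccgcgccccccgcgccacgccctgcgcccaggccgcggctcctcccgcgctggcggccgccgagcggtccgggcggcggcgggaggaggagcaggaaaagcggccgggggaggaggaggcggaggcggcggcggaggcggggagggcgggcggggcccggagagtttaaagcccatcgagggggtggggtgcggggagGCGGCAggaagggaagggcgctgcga
Meg3 (chr12:109540746-109541045, plus strand): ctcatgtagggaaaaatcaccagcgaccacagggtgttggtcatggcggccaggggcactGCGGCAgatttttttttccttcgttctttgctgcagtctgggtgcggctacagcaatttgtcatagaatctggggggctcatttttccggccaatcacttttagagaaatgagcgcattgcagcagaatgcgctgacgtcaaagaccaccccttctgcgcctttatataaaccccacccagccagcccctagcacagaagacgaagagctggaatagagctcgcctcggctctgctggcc
Peg3 (chr7:6730370-6730669, minus strand): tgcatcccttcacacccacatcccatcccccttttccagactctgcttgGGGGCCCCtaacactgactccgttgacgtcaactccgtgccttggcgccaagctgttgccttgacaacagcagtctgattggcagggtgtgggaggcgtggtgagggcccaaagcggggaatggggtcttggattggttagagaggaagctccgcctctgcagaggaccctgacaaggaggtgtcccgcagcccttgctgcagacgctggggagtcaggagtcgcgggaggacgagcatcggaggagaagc

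The printed Plagl1, Grb10 and Meg3 promoters each held 1 match to TGCCGC, at bases 161 to 166, 275 to 280 and 61 to 66 of the printed runs. That string occurred in 11.6% of 32851 RefSeq promoters of the same length. It was not particular to genes that passed. The overlapping Mest promoters at chr6:30737800-30738099 and chr6:30737803-30738102 held 2 matches each, and the Igf2 promoter at chr7:142661222-142661521 held 1. Other Mest and Igf2 promoters, and those of Ndn and Dlk1, held none. The Peg3 promoter held none, but held GGGGCCCC, found in 1.08% of promoters, at bases 50 to 57. The RefSeq table gave 15 promoters for 8 of the genes, and H19 and Cdkn1c had no entry. None of the 15 held the YY1 core GCCATNTT (6.05% of all promoters) or the NF-kB consensus (4.51%), which says only that these letters are not in these windows. The printed Grb10 promoter had 45 CpG in 300 bases, more than 98.1% of promoters, and its other promoter had 9, more than 54.2%. The Plagl1 promoter had 26 against a median of 7 over all promoters.

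At 10 ng/ml, Plagl1, Meg3 and Grb10 fell against untreated cells and none of the 10 rose. At 30 ng/ml the same 3 genes and Peg3 fell, and again none rose. At 100 ng/ml no gene of the 10 passed the threshold of 0.05 on the adjusted p of edgeR's quasi-likelihood test. Of all 17360 genes, 29.2% were called at 10 ng/ml (15% higher, 14.2% lower), 23.3% at 30 ng/ml (12.6% higher, 10.7% lower) and 1.12% at 100 ng/ml, and since the genes were picked with these contrasts known, nothing is read from the comparison of counts with those shares. The median log2 change of the 10 was -0.90 at 10 ng/ml, -0.64 at 30 ng/ml and 0.32 at 100 ng/ml, beside 0.01, 0.01 and 0.00 over all genes tested. The 2 libraries of a dose did not overlap with the untreated ones for 8, 8 and 6 of the 10 genes, beside 65.6%, 63.2% and 44% of all genes tested. At 100 ng/ml 1 of the 10, Grb10, had an unadjusted p under 0.05, as had 11.6% of all genes, and DESeq2 and limma-voom also called 0.

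**Figure D1:**
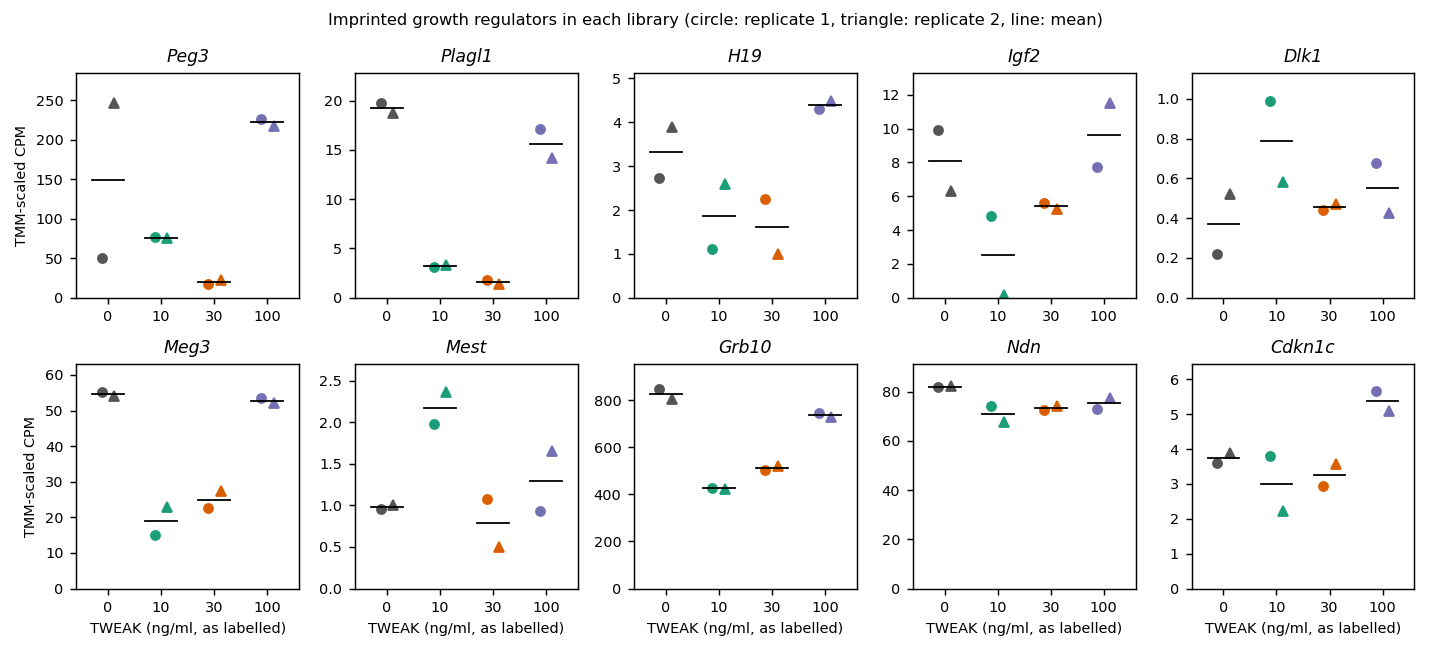
Level of each of the 10 genes in every library (TMM-scaled CPM, vertical axes from 0, a scale for each gene) against the labelled TWEAK dose in ng/ml; circles are replicate 1, triangles replicate 2 and lines the mean of both. Plagl1, Meg3 and Grb10 were lower in both libraries at 10 and at 30 ng/ml than in either untreated library, whereas the untreated Peg3 libraries lay at 50 and 247 CPM and the Igf2 libraries at 10 ng/ml at 4.83 and 0.187 CPM.

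**Figure D2:**
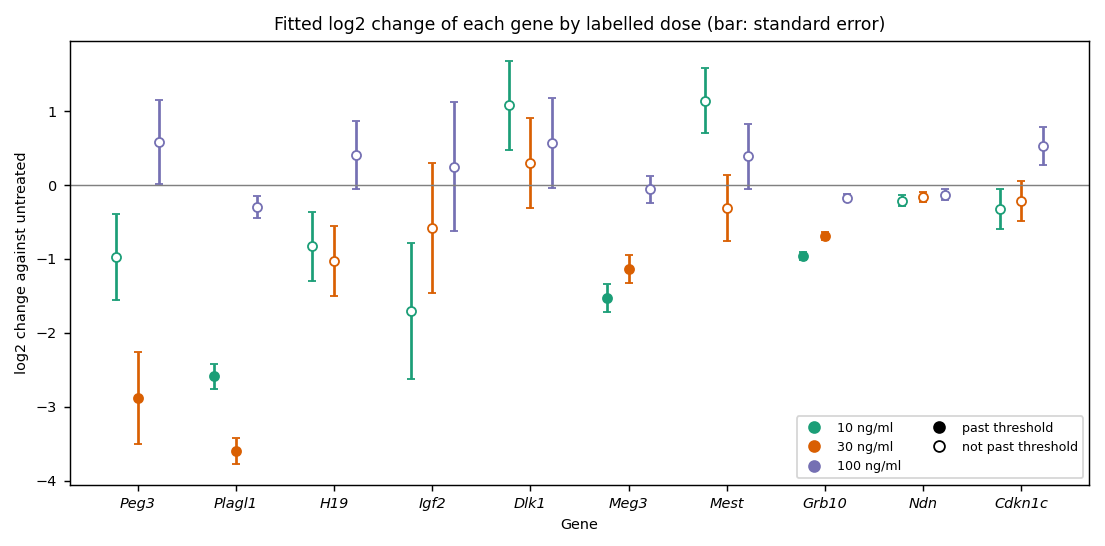
Fitted log2 change of each gene against untreated cells, by labelled dose, with its standard error (bars); filled points passed the edgeR threshold over all genes and open points did not. Filled points are Plagl1, Meg3 and Grb10 at 10 and 30 ng/ml and Peg3 at 30 ng/ml.

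Plagl1 (also called Zac1) encodes a zinc-finger transcription factor that restrains proliferation and acts on other imprinted genes. It lies on chromosome 10 at 13060504 to 13131694 on the plus strand. Untreated libraries had 993 and 938 counts, 19.8 and 18.8 CPM. With TWEAK the levels were 3.12 and 3.27 CPM at 10 ng/ml, 1.78 and 1.39 at 30 ng/ml, and 17.1 and 14.2 at 100 ng/ml. Levels at 10 and 30 ng/ml lay far below all others, those at 100 ng/ml lay just below untreated, and no 2 groups overlapped. Against untreated cells Plagl1 fell 6.03-fold at 10 ng/ml (log2 change -2.59 ± 0.17, SE) and 12.1-fold at 30 ng/ml (-3.60 ± 0.18). The 95% intervals of the ratio were 0.127 to 0.217 and 0.062 to 0.11. At 100 ng/ml the log2 change was -0.30 ± 0.15, which did not pass. Of its 7819 exon bases, 38 are shared with Gm27741 on the other strand.

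Meg3 is a long noncoding RNA of the Dlk1-Dio3 cluster on chromosome 12 (109541001 to 109571726, plus strand) and is known to restrain proliferation in several cell types. Its untreated libraries had 55.3 and 54.2 CPM. The levels were 14.9 and 22.9 CPM at 10 ng/ml, 22.5 and 27.5 at 30 ng/ml, and 53.4 and 52.0 at 100 ng/ml. The libraries at 10 and 30 ng/ml overlapped with each other and lay below all the rest, and those at 100 ng/ml lay just below untreated. Meg3 fell 2.89-fold at 10 ng/ml (log2 change -1.53 ± 0.19, SE) and 2.19-fold at 30 ng/ml (-1.13 ± 0.19). At 100 ng/ml the log2 change was -0.06 ± 0.18, with an interval of the ratio from 0.717 to 1.29. Exons of Mir770, Mir1906-1 and 2 other genes share 1499 bases in sum with the 18089 exon bases of Meg3.

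Grb10 encodes an adaptor protein that binds the insulin and IGF1 receptors and dampens their signal. It lies on chromosome 11 at 11930508 to 12038683 on the minus strand, and no exon of another annotated gene overlaps its exons. Untreated libraries had 42348 and 40160 counts, 846 and 806 CPM. TWEAK libraries had 427 and 425 CPM at 10 ng/ml, 505 and 520 at 30 ng/ml, and 744 and 729 at 100 ng/ml. All 4 groups stood apart without overlap, from untreated as the highest through 100 and 30 to 10 ng/ml as the lowest. Grb10 fell 1.94-fold at 10 ng/ml (log2 change -0.96 ± 0.05, SE) and 1.61-fold at 30 ng/ml (-0.69 ± 0.05). At 100 ng/ml the change was -0.17 ± 0.05 and did not pass once adjusted over all genes. In bulk RNA, fewer cells that express a gene and less of its RNA per cell cannot be told apart.

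Peg3 encodes a large zinc-finger protein tied to growth, maternal behaviour and p53-linked cell death, and lies on chromosome 7 at 6703892 to 6730431 on the minus strand. The untreated libraries disagreed, with 2503 and 12298 counts, 50 and 247 CPM. TWEAK libraries lay closer together, at 76.3 and 75.3 CPM for 10 ng/ml and 226 and 218 for 100 ng/ml. At 30 ng/ml they had 17.2 and 23.0 CPM. These were 1.34-fold apart, where the median gene of at least 5 CPM was 1.08-fold apart. Both libraries at 30 ng/ml lay below every other library, while those at 10 and 100 ng/ml lay between the untreated values. The log2 change was -2.88 ± 0.62 (SE) at 30 ng/ml, a 7.38-fold fall with an interval of the ratio from 0.0503 to 0.365. It was -0.97 ± 0.58 at 10 ng/ml and 0.58 ± 0.57 at 100 ng/ml, and neither passed in the fit of all libraries. The direction at 10 and 100 ng/ml rested on 1 untreated library. Without untreated replicate 1 the log2 change was -1.70 at 10 ng/ml (adjusted p = 0.000442), -3.62 at 30 ng/ml and -0.15 at 100 ng/ml, and the first 2 passed. Without untreated replicate 2 it was 0.60 (adjusted p = 0.0443), -1.32 and 2.15 (adjusted p = 0.00614), and all 3 passed. The adjusted p of the other alternatives reached 0.547 at 10 ng/ml and 0.938 at 100 ng/ml. The call at 30 ng/ml was lost without the first library of that dose (-2.69, adjusted p = 0.0826) and with limma-voom (-2.48, adjusted p = 0.0537). Over the alternatives at 30 ng/ml the adjusted p ran from 0.000102 to 0.0826.

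The gap between the untreated Peg3 libraries was 4.93-fold, where the median gene was 1.07-fold apart. Among 11157 genes with at least 5 CPM, 24 (0.215%) were as far apart or farther, and 29 were at least 4-fold apart. Tmem127, named after its values were seen, had 16.3 and 147 CPM in the same 2 libraries and 125 to 138 CPM in the other 6. No annotated exon overlaps those of Peg3, and the origin of the gap was not tested. In the other groups 38, 26 and 31 genes were at least 4-fold apart at 10, 30 and 100 ng/ml.

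**Figure D3:**
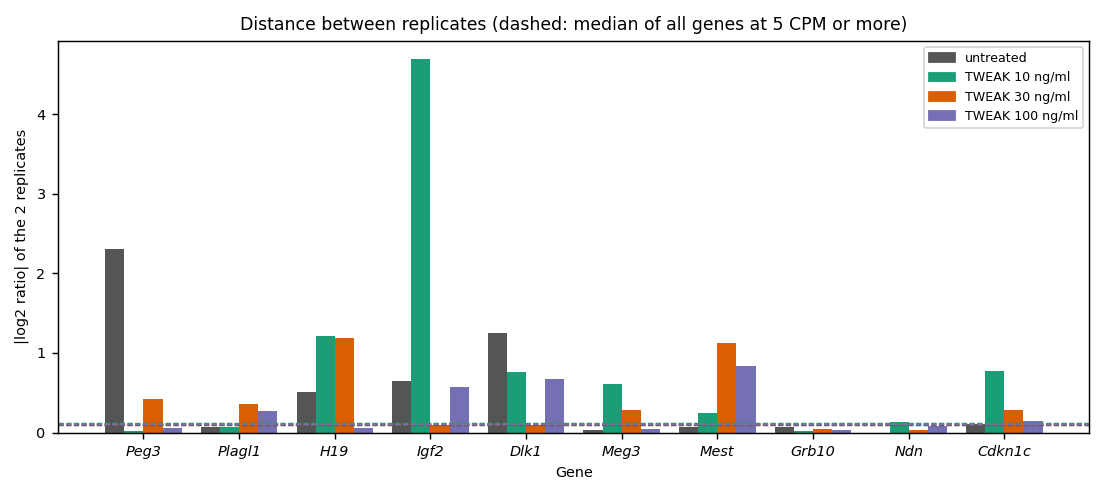
Absolute log2 ratio between the 2 libraries of a group for each of the 10 genes (bars from 0, colours are groups), with the median over genes of at least 5 CPM in each group as dashed lines. Igf2 at 10 ng/ml (25.8-fold) and untreated Peg3 (4.93-fold) stand out most, and Grb10 and Ndn stay near the median. Genes below 5 CPM were also far apart in places. These were untreated Dlk1 (2.37-fold), H19 at 10 and 30 ng/ml (2.31- and 2.27-fold) and Mest at 30 ng/ml (2.18-fold), among others.

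Igf2 encodes insulin-like growth factor 2, the fetal growth ligand of the IGF1 receptor, and H19 is the noncoding RNA that shares its enhancers. They lie 72.6 kb apart on chromosome 7, Igf2 at 142650766 to 142666816 and H19 at 142575529 to 142578143. Igf2 had 9.89 and 6.28 CPM in untreated libraries, 4.83 and 0.187 at 10 ng/ml, 5.59 and 5.24 at 30 ng/ml, and 7.72 and 11.5 at 100 ng/ml. The 2 libraries at 10 ng/ml held 181 and 8 counts, 25.8-fold apart, a gap that 10 of 11157 genes reached in that group. All 4 libraries at 10 and 30 ng/ml lay below the untreated ones, but no contrast of Igf2 with untreated passed. The log2 change was -1.70 ± 0.92 at 10 ng/ml, -0.58 ± 0.88 at 30 ng/ml and 0.25 ± 0.87 at 100 ng/ml. It was -5.42 and passed (adjusted p = 0.00074) without the first library at 10 ng/ml, -0.74 and did not pass without the second, and passed with limma-voom (-3.17, adjusted p = 0.0458). Exons of Gm49394 and Igf2os overlap the 5723 exon bases of Igf2 by 3694 bases in sum, so its counts are uncertain.

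H19 had 2.74 and 3.89 CPM in untreated libraries, 1.12 and 2.59 at 10 ng/ml, 2.25 and 0.992 at 30 ng/ml, and 4.30 and 4.48 at 100 ng/ml. All libraries at 10 and 30 ng/ml lay below both untreated ones, and those at 100 ng/ml lay above. The log2 changes of -0.83 ± 0.47, -1.03 ± 0.47 and 0.40 ± 0.46 did not pass. At 10 ng/ml the library with the lower H19 count (42 against 111) had the higher Igf2 count (181 against 8). At 30 ng/ml the library with the lower H19 count (42 against 102) had the lower Igf2 count (222 against 254).

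Cdkn1c encodes the cyclin-dependent kinase inhibitor p57, and Ndn encodes necdin, a MAGE protein that binds E2F and restrains the cell cycle. Cdkn1c had 3.59 and 3.89 CPM in untreated libraries, 3.79 and 2.22 at 10 ng/ml, 2.93 and 3.56 at 30 ng/ml, and 5.68 and 5.10 at 100 ng/ml. The libraries at 100 ng/ml were the highest of the 8, but the log2 change of 0.53 ± 0.26 did not pass, with an interval of the ratio from 0.944 to 2.20. Ndn was the flattest of the 10, at 82.0 and 82.2 CPM in untreated libraries and between 67.6 and 77.4 CPM in the 6 TWEAK libraries. All 6 lay below both untreated libraries. Its log2 changes of -0.21 ± 0.07, -0.16 ± 0.07 and -0.13 ± 0.07 did not pass, and the intervals of the ratio reached down to 0.768 at 10 ng/ml. The Cdkn1c exons share 625 of 2039 bases with Gm44732 on the other strand.

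Mest encodes a member of the alpha/beta hydrolase family, and Dlk1 encodes a membrane protein of the Notch ligand family that holds back adipocyte differentiation. Both were low in every library. Mest had 48 and 50 counts in untreated libraries (0.959 and 1 CPM), 1.98 and 2.36 CPM at 10 ng/ml, 1.08 and 0.496 at 30 ng/ml, and 0.930 and 1.65 at 100 ng/ml. The libraries at 10 ng/ml were the highest of the 8, with a log2 change of 1.14 ± 0.44 that did not pass, although it did when only those 2 groups were fitted (1.15, adjusted p = 0.0378). The call under that fit stands beside adjusted p-values of 0.0588 to 0.264 when 1 library was left out. Dlk1 had 11 to 37 counts per library, 0.220 to 0.988 CPM, and its log2 changes of 1.08 ± 0.60, 0.30 ± 0.61 and 0.57 ± 0.61 did not pass. The end of Mest overlaps exons of Copg2 on the other strand by 912 bases, and Copg2 had 1220 to 1957 counts per library against 21 to 101 for Mest.

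Per kilobase of annotated exon, Grb10 had the highest level of the 10 in every group, 90.9 ± 3.11 CPM per kb in untreated cells (SD, n = 2). Ndn came next in every group, at 22.2 ± 0.0383 in untreated cells. Peg3 followed at 11.1 ± 10.5. At 30 ng/ml Cdkn1c had 1.59 ± 0.218 and Peg3 1.51 ± 0.308, a difference within the spread. Meg3 at 3.03 ± 0.043 and Plagl1 at 2.47 ± 0.0904 followed in untreated cells. Cdkn1c (1.83 ± 0.104), Igf2 (1.41 ± 0.446) and H19 (1.35 ± 0.331) came next, the last 2 not separated beyond their spread. Mest had 0.248 ± 0.00735 and Dlk1, the lowest in every group, 0.0656 ± 0.0377. At 10 ng/ml Plagl1 had 0.409 ± 0.0136 and at 30 ng/ml 0.203 ± 0.0353 CPM per kb.

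Between doses, no gene of the 10 was called for 30 against 10 ng/ml, where 0% of all genes were called by edgeR. At unadjusted p under 0.05 there were 4 of the 10 (Peg3, Plagl1, Mest and Grb10) and 1208 (6.96%) of all genes. DESeq2 called 2 of the 10 and 127 of all genes in that comparison, and limma-voom called 0 of both. Against 10 ng/ml, Plagl1, Meg3 and Grb10 were higher at 100 ng/ml, where 10.7% of all genes were called higher. The log2 differences were 2.29 ± 0.17, 1.48 ± 0.19 and 0.79 ± 0.05 (SE). Against 30 ng/ml, Peg3, Plagl1, Meg3 and Grb10 were higher at 100 ng/ml, where 7.15% of all genes were called higher. The differences were 3.47 ± 0.63, 3.30 ± 0.18, 1.08 ± 0.19 and 0.52 ± 0.05. These contrasts share libraries with those against untreated cells.

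Over the 8 libraries, the Pearson correlation of log2 CPM between Meg3 and Grb10 was 0.96, and Plagl1 correlated with Grb10 at 0.88 and with Meg3 at 0.86. Igf2 and H19 correlated at 0.14, and Dlk1 and Meg3, which share a cluster, at -0.55. These are descriptions over libraries that share group and depth. Of 10608 other genes searched, those most like Plagl1 were Shisa2 (0.983), Tcta (0.979) and Ncald (0.979). Shisa2 had 8.53 ± 0.479 CPM in untreated cells, 3.21 ± 0.214 at 10 ng/ml, 2.74 ± 0.135 at 30 ng/ml and 7.18 ± 0.0289 at 100 ng/ml (SD, n = 2). Those most like Meg3 were Dspp (0.998), Atp10d (0.997) and Pnrc2 (0.996). Those most like Peg3 were Tcf4 (0.983), Sec22b (0.981) and Mpst (0.961), and Tcf4 had 120 and 164 CPM in the untreated libraries that differed in Peg3. For Igf2 they were Flywch1 (0.99), Asic1 (0.988) and Zfand3 (0.982). All 3 had their lowest level in the second library at 10 ng/ml, the one with 8 Igf2 counts. This follows from how they were picked and is no separate result. Igf2 had a log2 CPM of -2.33 in that library and 2.28 to 3.53 in the others, so these correlations rest mostly on that library. Asic1 had 0.935 CPM there and 6.38 to 9.23 in the other 7, Zfand3 54 and 130 to 150, and Flywch1 67.1 and 73.6 to 75.2. For H19 they were Ppp3cc (0.976), Epc1 (0.972) and Gpalpp1 (0.967). For the low genes Dlk1 and Mest the highest values were 0.942 (Zfp213) and 0.925 (Gskip). Grb10, Ndn and Cdkn1c spanned less than 1 log2 unit between group means and were not searched.

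Neighbours of the 10 genes in their imprinted clusters were partly called too, where 29.2% of all genes were called at 10 ng/ml and 23.3% at 30 ng/ml. Zim1, a zinc-finger gene 7.44 kb from Peg3, fell from 12.6 ± 2.30 to 3.06 ± 0.0998 CPM at 10 ng/ml and 4.85 ± 0.116 at 30 ng/ml. Its 100 ng/ml level was 9.36 ± 0.802 CPM. Usp29, 0.147 kb from Peg3, had 2.13 and 0.903 CPM in untreated cells and at 10 ng/ml, which did not pass. Rian, a noncoding RNA 32.2 kb beyond Meg3, fell from 42.9 ± 3.22 to 19.8 ± 0.808 CPM at 10 ng/ml and stood at 42.9 ± 8.23 at 100 ng/ml. Dio3, the deiodinase that inactivates thyroid hormone, 707 kb beyond Meg3, fell from 3.58 ± 0.555 to 0.509 ± 0.224 CPM at 10 ng/ml. On the same chromosome Rtl1 had at most 33 counts in a group, Begain did not pass at any dose, and Mirg, 158 kb beyond Meg3, had 1.17 CPM in untreated cells and 1 CPM at 10 ng/ml and did not pass. Around Cdkn1c, H19 and Igf2 on chromosome 7, Osbpl5 fell from 135 ± 2.59 to 102 ± 6 CPM at 10 ng/ml and 104 ± 1.02 at 30 ng/ml. Cd81 fell from 476 ± 7.45 to 405 ± 6.95 CPM at 30 ng/ml and did not pass at 10 ng/ml (421 ± 35.5). Kcnq1 was at 0 counts in every library and Phlda2 in all but 1, with 5 counts, and Kcnq1ot1, Slc22a18, Tssc4 and Ascl2 did not pass at 10 ng/ml. Near Ndn, Magel2 was at 0 counts in every library and Mkrn3 and Peg12 did not pass at 10 ng/ml. Next to Mest, Copg2 did not pass at 10 ng/ml, and neither did Ddc beside Grb10.

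A list held 52 further genes recorded as imprinted in some mouse tissue, of which 42 were tested. The neighbours named above are on this list, so their calls are counted again here. Whether they are imprinted in these cells was not measured. At 10 ng/ml 14 fell and 3 rose, beside 14.2% and 15% of all genes. At 30 ng/ml 11 fell and 2 rose, beside 10.7% and 12.6% of all genes. At 100 ng/ml edgeR called 0, beside 1.12% of all genes, DESeq2 called 2 and limma-voom 0. At that dose 8 of the list had an unadjusted edgeR p under 0.05, as had 11.6% of all genes. The median log2 change of the list was -0.22 at 10 ng/ml, -0.15 at 30 ng/ml and -0.07 at 100 ng/ml. The smallest p-values at 10 ng/ml belonged to Peg10, Zim1, Igf2r and Peg13. Peg10, a retrotransposon-derived gene needed in placenta, fell from 49.7 ± 1.33 to 16.8 ± 0.145 CPM, a log2 change of -1.56 ± 0.10 (edgeR adjusted p = 2.55e-05). Igf2r, the receptor that clears Igf2 protein, fell from 669 ± 18.9 to 409 ± 11.8 CPM (-0.71 ± 0.07, edgeR adjusted p = 0.000134). Peg13, a noncoding RNA, fell from 48.7 ± 0.321 to 26.2 ± 0.948 CPM (-0.90 ± 0.09, edgeR adjusted p = 0.000167). The genes that rose were H13 (0.53 ± 0.07), Blcap (0.47 ± 0.08) and Dcn (0.41 ± 0.08). Without untreated replicate 1, or without the first library at 30 ng/ml, 8 genes of the list were called at 30 ng/ml in place of 13.

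**Figure D4:**
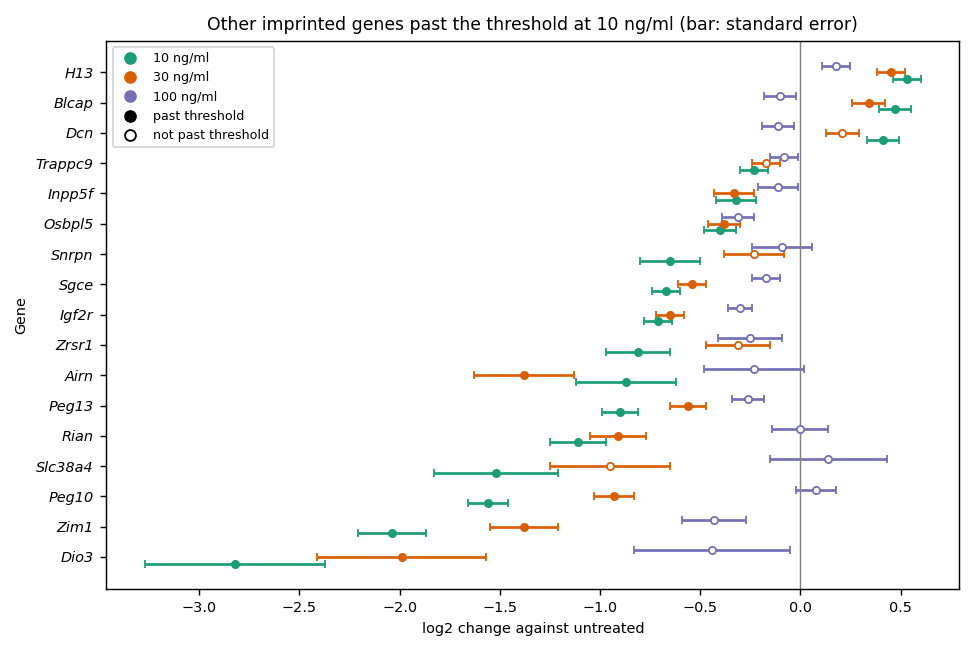
Log2 change against untreated cells, with its standard error (bars), of the 17 other imprinted genes that passed the threshold at 10 ng/ml; colours are labelled doses, and open points did not pass at that dose. Of these 17 genes 14 lie below 0 at 10 ng/ml, down to Dio3 at -2.82, and at 100 ng/ml all points are open.

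Igf2 and Grb10 belong to the IGF signalling axis, of which 17 of 18 other listed genes were tested. Igf2r is counted both here and among the further imprinted genes. At both 10 and 30 ng/ml 7 fell and 2 rose, and at 100 ng/ml 1 fell, Igfbp5. Of all genes 29.2%, 23.3% and 1.12% were called at 10, 30 and 100 ng/ml. Igf1, the ligand that acts on the same receptor as Igf2, fell from 227 ± 0.71 to 26.7 ± 1.15 CPM at 10 ng/ml, a log2 change of -3.09 ± 0.10 (edgeR adjusted p = 2.51e-06). It had 41.1 ± 5.55 CPM at 30 ng/ml and 159 ± 6.46 at 100 ng/ml. Of the binding proteins, which hold IGFs in the medium, Igfbp4 had a log2 change of -1.30 ± 0.07, Igfbp5 of -1.66 ± 0.10 and Igfbp6 of -1.32 ± 0.10 at 10 ng/ml, and all 3 fell. The 2 that rose were Igfbp3, from 26.2 ± 1.6 to 39.9 ± 0.102 CPM, and Pappa2, a protease of binding proteins, from 4.3 ± 1.37 to 12.1 ± 1.22 CPM. Pappa, the other and more abundant protease of the list, went from 189 ± 3.89 to 53.8 ± 4.57 CPM at 10 ng/ml. Its level was 79.9 ± 16.9 CPM at 30 ng/ml and 190 ± 19.6 at 100 ng/ml. Igfbp5 was still 2.1-fold below untreated at 100 ng/ml, at 763 ± 80.9 against 1600 ± 33.7 CPM.

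Of 14 genes that keep or remove methylation at imprinting control regions, 2 rose and 2 fell at 10 ng/ml. At 30 ng/ml 1 rose and 2 fell. Of all genes 29.2% and 23.3% were called at these doses. At 100 ng/ml edgeR called 0 of the 14, DESeq2 1 and limma-voom 0. There 1 had an unadjusted edgeR p under 0.05, as had 11.6% of all genes. Uhrf1, which guides Dnmt1 to replicating DNA, rose from 11.4 ± 1.55 to 46.8 ± 3.96 CPM at 10 ng/ml (log2 change 2.04 ± 0.15, edgeR adjusted p = 3.9e-05). Trim28 (0.24 ± 0.07) rose, and Zfp445 (-0.35 ± 0.08) and Ctcf (-0.24 ± 0.07) fell. Of 13 tested relatives and partners of the 10 genes, 2 rose and 4 fell at 10 and at 30 ng/ml, beside the same 29.2% and 23.3%. At 100 ng/ml edgeR, DESeq2 and limma-voom called 0 of the 13. There 4 had an unadjusted edgeR p under 0.05, beside 11.6% of all genes. Cdkn1a, the p21 relative of Cdkn1c, rose from 340 ± 7.63 to 533 ± 25.3 CPM (log2 change 0.65 ± 0.06), while Cdkn1b, the p27 relative, fell (-0.70 ± 0.08). Notch2, a receptor that Dlk1 may bind, rose (0.74 ± 0.08), and Maged1, a MAGE relative of Ndn, fell (-0.53 ± 0.07).

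The sum of the fibroblast markers, most of it collagen, moved with the falls. It was 19300 to 19700 CPM in untreated libraries and 8340 to 8600 at 10 ng/ml. At 30 ng/ml it was 9470 to 10900 CPM and at 100 ng/ml 17100 to 17900. At 10 and at 30 ng/ml 6 of 7 fell and 1 rose, where 29.2% and 23.3% of all genes were called. Col3a1 fell from 8910 ± 59.7 to 1910 ± 35.3 CPM at 10 ng/ml. The marker that rose was Pdgfra, from 1260 ± 19.1 to 1460 ± 19.2 CPM at 10 ng/ml and 1490 ± 94.3 at 30 ng/ml. Leukocyte markers summed to 11.4 to 15.3 CPM in untreated libraries and 21.6 to 26.7 in all TWEAK libraries, and Cd68 rose at every dose. Epithelial markers summed to 0.519 to 0.802 CPM in untreated libraries and at most 5.06 at any dose, and Ager, the one tested, rose at 10 and 30 ng/ml. Endothelial markers summed to 4.93 to 6.24 CPM in all libraries, while Cdh5 rose from 0.15 ± 0.042 to 4.04 ± 0.327 and Tek fell from 4.73 ± 0.34 to 1.46 ± 0.321 CPM at 10 ng/ml. Mesothelial markers summed to 12.6 to 13.1 CPM in untreated, 4.42 to 6.06 at 10, 4.29 to 5.31 at 30 and 8.39 to 11.1 at 100 ng/ml. Of 3 tested mesothelial markers 2 fell at 10 and at 30 ng/ml. Mural and smooth muscle markers summed to 552 to 837 CPM over all libraries, most of it Acta2, but at 10 and 30 ng/ml 3 of 5 rose and 1 fell. At 10 ng/ml Des rose from 31.5 ± 5.56 to 115 ± 5.38 CPM, and Rgs5 and Cspg4 rose to 4.87 ± 0.934 and 2.63 ± 0.318, while Myh11 fell from 26.8 ± 5.1 to 13 ± 0.602. The part of these shifts in the levels of the imprinted genes was not tested.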

How the data were processed

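RNA was sequenced from 8 fibroblast libraries in 4 groups of 2, grouped by the sample titles, with columns matched to samples by the sample descriptions. The authors deposited 1 table of raw counts per gene row, with no normalization. The submitters' processing notes list STAR, StringTie and the build mm10, with neither versions nor roles. The sources used here do not give the counting program, the annotation or the use of strand, so reads of overlapping or antisense genes cannot be told apart. Of the low values from 1 to 10, 66.3% were odd, and 280 named rows held 1 in every library, microRNA rows among them, so low values may not be simple read counts and microRNA rows were not used. Of 55335 rows, 3225 had no symbol (0.168% to 0.178% of counts) and were left out.

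The 10 genes and all gene and marker lists were chosen with earlier results of these data known. Genes were tested with the quasi-likelihood test of edgeR 4.0.16 in R 4.3.3, with filterByExpr by group, TMM, all 8 libraries in 1 fit and Benjamini-Hochberg adjustment over 17360 genes at 0.05. Standard errors are approximate, since they were derived from F statistics. The 95% intervals use 4 residual and 3.77 prior degrees of freedom. The test was checked on simulated counts with the same dispersion set for every gene. That check does not cover genes whose replicates lie far apart, such as Peg3 and Igf2. Chi-square values between replicates, divided by degrees of freedom, were 24.5 to 30.1, beyond sampling noise. Named were all 10 genes, up to 4 genes per list with the smallest p at 10 ng/ml, the 3 genes with the highest correlation to each gene whose group means span at least 1 log2 unit (mean of at least 5 CPM), and listed neighbours. H13, Blcap, Dcn, Igfbp3, Pappa2, Pappa and Tmem127 stand outside that rule and were named after their values were seen, as were the examples from the marker lists. Positions are GENCODE M21 on mm10, from 1. Alternatives were DESeq2 1.42.0, limma-voom (limma 3.58.1), DESeq2 size factors, library totals, 2 other filters, a fit of the 2 groups alone, a block for the replicate number and leaving out each library, the lone library then being assumed to vary like the others. Leaving out both libraries at 100 ng/ml was added after seeing the data.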

Additional observations from a re-analysis of the deposited data

How the results depend on the processing

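Of 30 log2 changes of the 10 genes against untreated cells, 7 passed the threshold, and 6 of these kept their call in every alternative. The exception was Peg3 at 30 ng/ml, and no called change turned its sign. Uncalled changes turned their sign when 1 library was left out. At 10 ng/ml Peg3 ran from -1.70 to 0.60 (positive without untreated replicate 2) and Cdkn1c from -0.76 to 0.02. At 30 ng/ml Dlk1 ran from -0.19 to 1.04 and Mest from -0.98 to 0.14. At 100 ng/ml Peg3 ran from -0.15 to 2.15, Igf2 from -0.07 to 0.61 (also -0.04) and Mest from -0.08 to 0.75. Without 1 library, the 10 genes held 0 to 1 call at 100 ng/ml against untreated, 0 to 1 for 30 against 10 ng/ml, 3 to 5 for 100 against 10 ng/ml and 2 to 5 for 100 against 30 ng/ml. The other imprinted genes held 8 to 14 calls at 30 ng/ml. DESeq2 called 2 of the 10 for 30 against 10 ng/ml, 5 for 100 against 10 ng/ml, and 2 other imprinted genes and 3 of the IGF axis at 100 ng/ml (edgeR 1 of the axis, limma-voom 2). Limma-voom called 5 of the 10 for 100 against 10 ng/ml. The causes were not tested. With the replicate block, 3 of the 10 were called at 10 ng/ml and 4 at 30 ng/ml, and 15 and 11 other imprinted genes. Deviations of same-numbered libraries correlated between -0.05 and 0.02 over all genes tested. No shared shift was seen, but noise of genes at low counts can mask one, and the labels do not tell if the numbers pair the samples. Dlk1 had 11 to 37 and Mest 21 to 101 counts per library.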
